A study of Mus musculus with 6 samples.

Results

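The Hox genes are the 39 gene models, of 23726 in the table, whose name is Hoxa, Hoxb, Hoxc or Hoxd followed by digits. They lie in 4 clusters (genome build mm9). The 11 HoxA genes lie on chromosome 6 between 52105366 and 52210874, the 10 HoxB genes on chromosome 11 between 96055675 and 96229567, the 9 HoxC genes on chromosome 15 between 102751562 and 102867283, and the 9 HoxD genes on chromosome 2 between 74506367 and 74603199. They were followed in 6 mouse RNA libraries from a skin carcinogenesis model, in which the mutagen DMBA starts and the phorbol ester TPA promotes benign papillomas, some of which progress to carcinoma. Biopsies were taken of healthy total skin (1 library), of DMBA/TPA papillomas (2 distinct lesions, 1 library each) and of a DMBA/TPA tumour (1 library). The cells mSCC-38 (1 library, tumorigenic) and mSCC-20 (1 library, not tumorigenic) were both isolated from a DMBA/TPA tumour. The labels give no strain, age, sex, body site or mouse for any sample, and do not say whether both cell populations came from the same tumour. They also do not say whether the papillomas grew on separate mice. The p-values therefore rest on the spread between the samples at hand, and part of that spread may be technical.

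Hox genes encode homeodomain transcription factors that give cells along the body axis their position. The genes are numbered by their order in the cluster: low-numbered genes (3′) are used early and towards the head, high-numbered genes (5′) later and towards the tail and the ends of the limbs. Genes that share a number in different clusters (paralogues, here in groups 1 to 13) descend from 1 ancestral gene and often act together. Adult skin keeps much of this pattern, above all in dermal fibroblasts, and Hoxc13 has a further role as the regulator of hair keratin genes in the hair follicle. Hox proteins bind DNA with Pbx and Meis partners, and Polycomb repressors and trithorax activators keep each gene off or on.

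The libraries held 25140489 (papilloma 1) to 42992597 (tumour) counts. Levels are given as CPM, counts per 1000000 counts scaled with TMM factors of 0.8485 to 1.199, and as CPM per kb of gene length where genes are compared with each other. Where a gene has 0 counts, a level of up to 3 counts is allowed, equal to 0.0604 CPM in skin, 0.141 and 0.106 CPM in the papillomas, 0.0712 CPM in the tumour, 0.0905 CPM in mSCC-38 and 0.0974 CPM in mSCC-20. RNA integrity numbers in the labels ran from 7.5 in skin to 9.6 in mSCC-38. The skin library carried the transcripts of its hair, muscle and fat, with summed levels of 18090 CPM for 10 hair follicle markers, 9914 CPM for 10 skeletal muscle markers and 2223 CPM for 8 adipocyte markers. The label of mSCC-38 calls it skin cells, and it held the keratinocyte genes Krt5 at 3745 CPM and Krt14 at 3054 CPM, but the epithelial adhesion genes Cdh1 at 1.63 CPM and Epcam at 3.26 CPM. In mSCC-20, Krt5 was at 9195 CPM, Krt14 at 6606 CPM, Cdh1 at 195 CPM and Epcam at 196 CPM.

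Most Hox genes were counted in the biopsies. Of the 39 members, 23 were at 1 CPM or more in all 4 biopsies, 11 in all 6 libraries and 29 in at least 1 library. The members at 1 CPM or more numbered 29 in skin, 25 in papilloma 1, 28 in papilloma 2, 24 in the tumour, 17 in mSCC-38 and 16 in mSCC-20. Hoxa13 and Hoxd1 had 0 counts in all 6 libraries, and 9 members, these included, stayed under 10 counts in every library. These were Hoxa11, Hoxa13, Hoxb1, Hoxc11, Hoxc12, Hoxd1, Hoxd11, Hoxd12 and Hoxd13, each of paralogue group 1 or of group 11 and above. The gene model of Hoxa3 spans Hoxa4, Hoxa5 and Hoxa6, and that of Hoxd3 spans Hoxd4, all on the same strand, so reads of these genes may be shared.

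**Figure D1:**
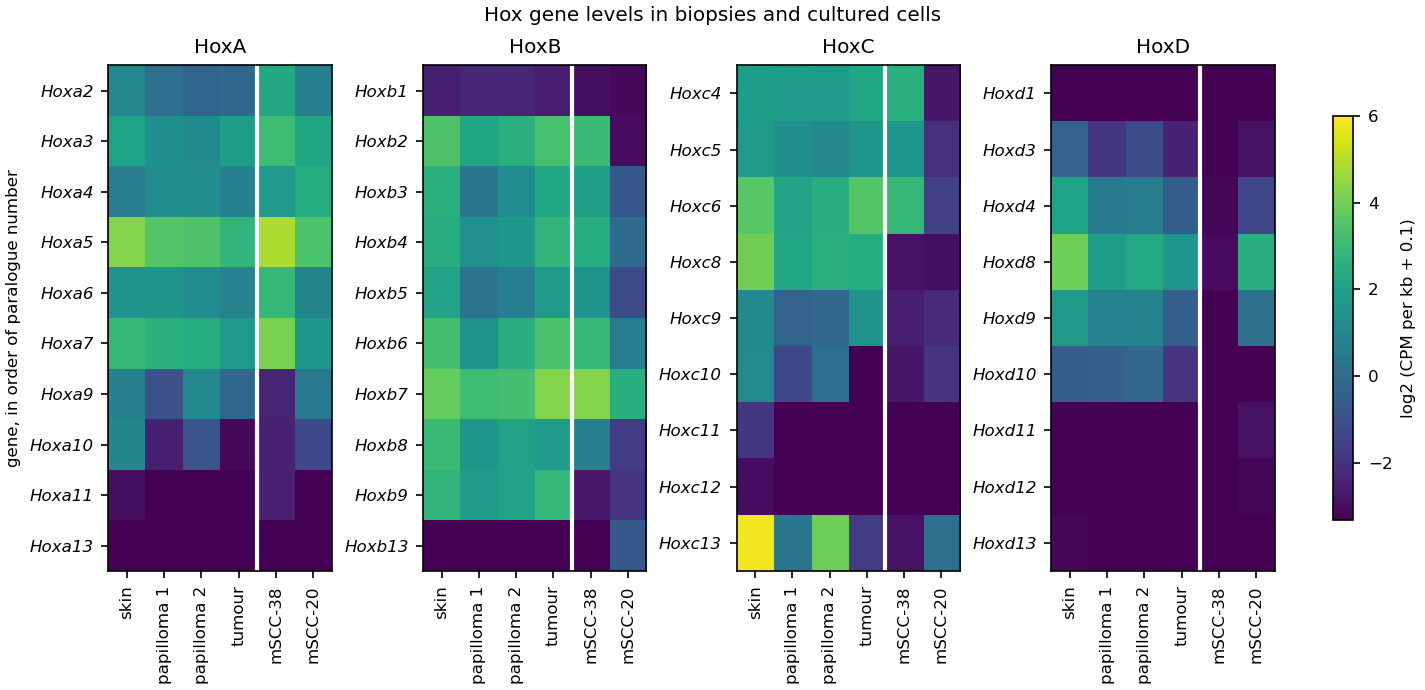
Level of 38 Hox genes in the 6 libraries, as log2 of CPM per kb plus 0.1, with genes down the page in order of paralogue number and 1 panel per cluster; the white line divides the 4 biopsies from the 2 cultures. Hoxc13 in skin is the highest cell at 56.6 CPM per kb, and the lower rows of HoxC and HoxD are at or near 0 in mSCC-38.

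Per kb, the 3 highest members differed between libraries. In skin they were Hoxc13 at 56.6, Hoxa5 at 19.4 and Hoxc8 at 15.8 CPM per kb. Papilloma 1 had Hoxa5 at 11.2, Hoxb7 at 8.51 and Hoxa7 at 6.13 CPM per kb, and papilloma 2 had Hoxc13 at 15.4, Hoxa5 at 10.3 and Hoxb7 at 9.42 CPM per kb. The tumour had Hoxb7 at 19.3, Hoxc6 at 11.1 and Hoxb6 at 9.94 CPM per kb. In mSCC-38 the order was Hoxa5 at 28.5, Hoxb7 at 19.2 and Hoxa7 at 17.5 CPM per kb, and in mSCC-20 Hoxa5 led at 10.1 CPM per kb, with Hoxb7 at 5.74 CPM per kb also among the 3 highest. Hoxa5, which patterns the neck and upper thoracic skeleton and the lung, was thus among the 3 highest in 5 of the 6 libraries, the tumour excepted.

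The comparison of papilloma with skin asks how positional gene expression in a benign lesion compares with normal tissue. Hox levels in skin differ by body site, and no site is given for any sample. A difference in site therefore cannot be told apart from one in lesion, here and in the later comparisons. Hox genes of every cluster fell in the papillomas, most of them in HoxB and HoxC, and 1 rose. Of the 29 members with enough counts to be tested, 11 fell and 1 rose (edgeR's quasi-likelihood test, Benjamini-Hochberg adjusted p under 0.05 over 16353 genes). Among all genes tested, 14.1% fell and 12.0% rose. The median log2 fold change was -0.998 over the 29 members and -0.06 over all genes. By cluster, 1 of 9 HoxA genes fell, 5 of 8 HoxB genes fell, as did 3 of 7 HoxC genes and 2 of 5 HoxD genes. Both papillomas were lower than skin for 24 of the 29 (48.5% of all genes) and higher for 3 (41.6% of all genes), among them Hoxa4 and Hoxd10.

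The lowest ratios that passed were in HoxB and HoxD. Hoxb3, which helps to pattern the hindbrain, was at 4.36 and 8.34 CPM in papilloma 1 and papilloma 2 and at 22.9 CPM in skin, a log2 fold change of -1.84 ± 0.39 (SE; adjusted p = 0.0328 by edgeR). Hoxd8 had 5.20 and 7.31 CPM in the papillomas and 21.9 CPM in skin, a log2 fold change of -1.80 ± 0.29 (adjusted p = 0.0187 by edgeR). For both genes the papillomas lay closer to each other than to skin. Hoxb5 was at 2.02 and 2.83 CPM in the papillomas and at 8.15 CPM in skin, with a log2 fold change of -1.74 ± 0.34 (adjusted p = 0.0271 by edgeR). Hoxd4, which helps to specify neck vertebrae, was at 3.42 and 3.57 CPM against 10.6 CPM in skin, a log2 fold change of -1.60 ± 0.29 (adjusted p = 0.0234 by edgeR).

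Within HoxC the members that fell were of paralogue groups 6, 8 and 9, the groups used along the trunk. Hoxc8, a gene of the thoracic body wall and of brachial motor neurons, was at 10.8 and 14.2 CPM in the papillomas and at 37.4 CPM in skin, and its log2 fold change was -1.57 ± 0.22 (edgeR adjusted p = 0.0148). Hoxc9 had 1.17 and 1.27 CPM in the papillomas and 3.54 CPM in skin, with a log2 fold change of -1.53 ± 0.37 (adjusted p = 0.0421 by edgeR). Hoxc6 had 6.84 and 8.97 CPM in the papillomas and 18.9 CPM in skin, a log2 fold change of -1.25 ± 0.25 (adjusted p = 0.0279 by edgeR). Their low-numbered neighbours Hoxc4 and Hoxc5 did not pass, with 6.84 and 6.36 CPM for Hoxc4 in the papillomas against 7.28 CPM in skin, and 6.70 and 5.37 CPM for Hoxc5 in the papillomas against 9.29 CPM in skin (edgeR adjusted p = 0.715 for Hoxc4 and 0.164 for Hoxc5). The difference between these neighbours and Hoxc8 was not tested.

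The other members that fell did so by less. Hoxb8, whose loss in mice causes excessive grooming, was at 7.69 and 10.6 CPM in the papillomas and at 21.2 CPM in skin, a log2 fold change of -1.21 ± 0.27 (adjusted p = 0.0365 by edgeR). Hoxb2 was at 7.36 and 9.64 CPM in the papillomas and at 17.1 CPM in skin, a log2 fold change of -0.998 ± 0.253 (adjusted p = 0.0471 by edgeR). Hoxb4, known as a regulator of blood stem cells, was at 6.42 and 7.73 CPM in the papillomas and at 14.1 CPM in skin, a log2 fold change of -0.98 ± 0.24 (adjusted p = 0.0423 by edgeR). Every member that fell kept both papillomas under the skin library. Hoxa5 was at 20.9 and 19.4 CPM in the papillomas and at 36.3 CPM in skin, a log2 fold change of -0.84 ± 0.16 (adjusted p = 0.0254 by edgeR), the only HoxA gene to fall. With DESeq2's size factors in the same test, Hoxb2, Hoxb3, Hoxb4, Hoxb8 and Hoxc9 missed the threshold, at edgeR adjusted p of 0.0539 to 0.0661. Hoxb2, Hoxb4 and Hoxc9 missed it by DESeq2's Wald test and, in edgeR, with only the libraries of this pair (adjusted p of 0.0554 to 0.132), and Hoxb2 with all 6 libraries (edgeR adjusted p = 0.0511).

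Several HoxA and HoxB genes did not pass the test in this comparison. Hoxa7 was at 12.0 and 10.6 CPM in the papillomas and at 14.3 CPM in skin. Hoxb7 was at 10.8 and 11.9 CPM in the papillomas and at 17.5 CPM in skin (edgeR adjusted p = 0.0718). Hoxb9 was at 9.24 and 11.4 CPM in the papillomas and at 18.8 CPM in skin, just above the threshold (edgeR adjusted p = 0.0500387). Hoxb6 was at 3.42 and 7.42 CPM in the papillomas and at 12.4 CPM in skin. Hoxa2 was at 1.59 and 1.17 CPM in the papillomas and at 3.30 CPM in skin, and Hoxd9 at 3.52 and 3.53 CPM in the papillomas and 6.86 CPM in skin (edgeR adjusted p = 0.0894 for Hoxa2 and 0.0830 for Hoxd9). These genes lay lower in both papillomas than in skin without passing.

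By ratio, the 2 papillomas differed most in Hoxc13, Hoxa10, Hoxa9 and Hoxc10 among the 29 tested members. Hoxa9 was at 0.891 CPM in papilloma 1 and 4.77 CPM in papilloma 2, on either side of 3.52 CPM in skin. Hoxa10, which acts in the lumbar region and the uterus, had 0.234 and 1.41 CPM in papilloma 1 and papilloma 2 (5 and 40 counts) and 5.85 CPM in skin, a log2 fold change of -2.77 ± 0.85 that did not pass (edgeR adjusted p = 0.0712). Hoxc10 had 0.563 and 1.84 CPM in the papillomas and 4.12 CPM in skin (edgeR adjusted p = 0.123). In a rule of size that uses no test (at least 4-fold on CPM plus 0.5, and 2 CPM or more in the higher group), 2 of 26 members were lower in papilloma, Hoxa10 and Hoxc13, and 0 were higher. Of all genes, 5.40% were lower and 3.44% higher by that rule. Without papilloma 1, 0 members were lower by it, and without papilloma 2, 4 were.

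**Figure D2:**
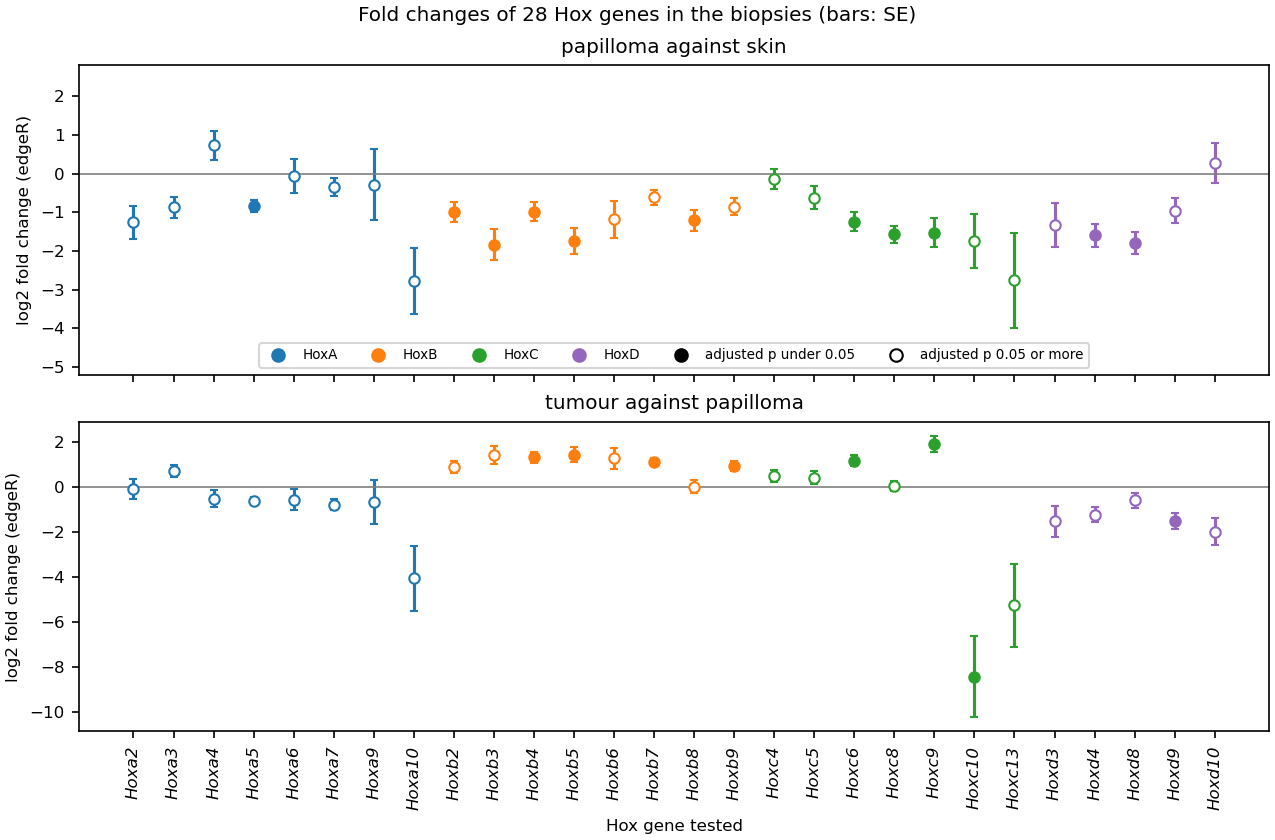
Log2 fold changes of 28 of the tested Hox genes in papilloma against skin (top) and tumour against papilloma (bottom), with SE bars and filled points for adjusted p under 0.05. Above, 26 of the 28 points lie under 0; below, 7 of 8 HoxB points lie above 0 and all 5 HoxD points lie under 0.

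Other cell types of the biopsy moved in the same comparison. The 10 skeletal muscle markers summed to 1877 and 1157 CPM in the papillomas and 9914 CPM in skin, and 9 of the 10 fell, with none at 0 in any biopsy. The 12 keratinocyte markers summed to 72920 and 57680 CPM in the papillomas and 20410 CPM in skin, with 4 risen and 1 fallen. The 12 fibroblast markers summed to 5352 and 4395 CPM in the papillomas and 3877 CPM in skin, with 1 risen and 4 fallen. The 8 adipocyte markers summed to 1637 and 949.6 CPM in the papillomas and 2223 CPM in skin, with 5 fallen and 0 risen (median log2 fold change -2.93) and none at 0 in any biopsy. In bulk biopsies fewer cells of a type and less RNA per cell cannot be told apart, and the part of these cell types in the Hox counts was not tested.

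Hoxc13 was the member with the widest range. It was at 2.81 CPM in papilloma 1, 37.5 CPM in papilloma 2 and 137 CPM in skin (60, 1061 and 6834 counts), and at 0.522 CPM in the tumour (22 counts). The papillomas stood far apart, and the fit gave a large error: the log2 fold change of papilloma against skin was -2.76 ± 1.23 (edgeR adjusted p = 0.154) and that of tumour against papilloma -5.27 ± 1.84 (edgeR adjusted p = 0.105). Neither passed the test. Hair markers moved beside it, but Sox9 did not in the tumour. As a percentage of skin, Hoxc13 was at 2.05% in papilloma 1, 27.3% in papilloma 2 and 0.380% in the tumour. The sum of 10 hair follicle markers was at 0.968%, 29.9% and 1.82% of skin in papilloma 1, papilloma 2 and the tumour, with none at 0. Over 6 melanocyte markers, genes of the pigment cells that colour hair, the same 3 libraries stood at 2.95%, 34.4% and 1.99% of skin. In the tumour, Sox9 made up 288.7 of the 329.9 CPM summed over the hair follicle markers. Sox9 was at 205.8 CPM in skin and at 50.7 and 90.6 CPM in the papillomas. Krt71, another of these markers, was at 2.68 CPM in the tumour and 4239 CPM in skin. Of the hair follicle markers 3 of 10 fell in papilloma (Gata3, Lhx2 and Sox9), where 14.1% of all genes fell. The keratin genes and Tchh of that list did not pass, at edgeR adjusted p of 0.298 to 0.455. Of the 6 melanocyte markers Mitf had the lowest adjusted p (edgeR adjusted p = 0.0875). Of the hair keratin genes that Hoxc13 is known to control, Krt35 was at 362 CPM in skin, 0.422 CPM in papilloma 1, 114 CPM in papilloma 2 and 0.261 CPM in the tumour. Krt84 had 53.9 CPM in skin, 15.2 and 23.3 CPM in the papillomas and 1.78 CPM in the tumour. Both were lowest in the tumour, as Hoxc13 was among the biopsies, but other hair keratins were higher in the tumour than in papilloma 1, such as Krt31 at 1.40 CPM in the tumour and 0.0938 CPM in papilloma 1. Of 17 genes listed as hair shaft genes downstream of Hoxc13, Foxn1, Foxq1 and Krt84 fell in papilloma against skin. The median log2 fold change of all 17 was -3.03 there. In tumour against papilloma, Foxn1 and Krt84 fell and Foxq1 rose (log2 fold change 1.93 ± 0.18). Foxq1 was at 131 CPM in the tumour, 31.0 and 37.8 CPM in the papillomas and 60.5 CPM in skin. The part of hair in the Hoxc13 counts was not tested.

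**Figure D3:**
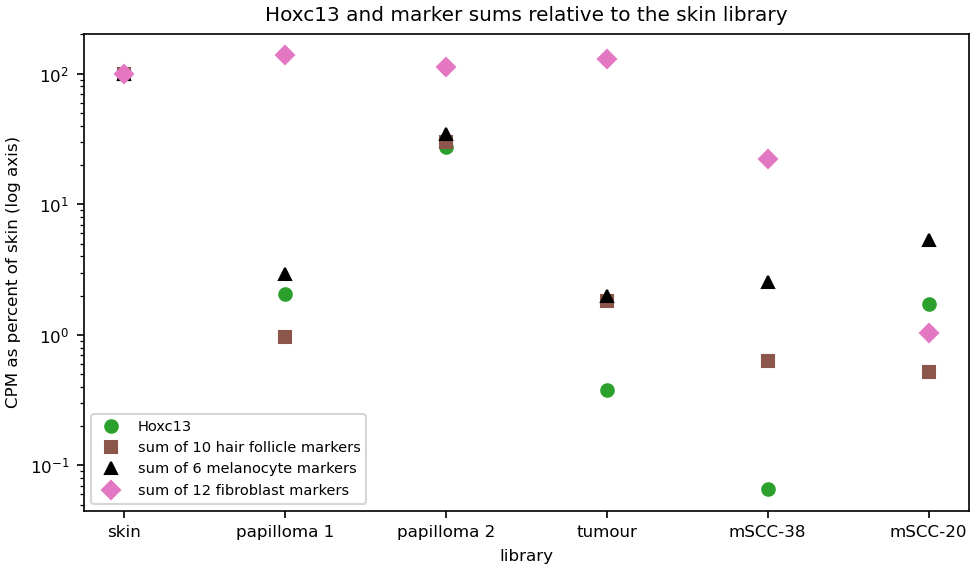
Hoxc13 (circles) and the summed CPM of hair follicle, melanocyte and fibroblast markers in each library, as a percentage of the skin library on a log axis. In papilloma 2 Hoxc13, hair follicle and melanocyte markers lie between 27.3% and 34.4%, and in papilloma 1 between 0.968% and 2.95%. The fibroblast sum is at 113% to 138% of skin in the 3 lesions, but its 12 markers did not move together. In papilloma against skin 1 rose and 4 fell (median log2 fold change -0.20). Col1a2 was at 1734 and 1379 CPM in the papillomas and 911 CPM in skin, and Dcn at 212 and 270 CPM in the papillomas and 859 CPM in skin. In the tumour, Sox9 is 288.7 of the 329.9 CPM of the hair follicle sum.

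The comparison of tumour with papilloma asks what differs between the malignant and the benign lesion. Genes of HoxB and the middle of HoxC were higher in the tumour, and 1 gene each of HoxC and HoxD was lower. Of the 29 tested members, 6 rose and 2 fell, beside 11.9% and 10.6% of all genes. The median log2 fold change was -0.00 over the members and -0.02 over all genes. In HoxB 4 of 8 rose, in HoxC 2 of 7 rose and 1 fell, in HoxD 1 of 5 fell, and of the 9 HoxA genes none passed, while 3 (Hoxa5, Hoxa7 and Hoxa10) were lower at an unadjusted p under 0.05. DESeq2's Wald test called Hoxa10 lower (adjusted p = 0.0377), and edgeR called Hoxa5 lower without a filter on low counts (adjusted p = 0.0468) and with all 6 libraries in the fit (adjusted p = 0.0466). The tumour was above both papillomas for 13 members (43.7% of all genes) and below both for 12 (42.3% of all genes).

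The genes that rose in the tumour were Hoxb4, Hoxb5, Hoxb7 and Hoxb9 with Hoxc6 and Hoxc9. Hoxc9 was at 4.56 CPM in the tumour and at 1.17 and 1.27 CPM in the papillomas, a log2 fold change of 1.89 ± 0.36 (adjusted p = 0.0267 by edgeR). Hoxb5 was at 6.55 CPM in the tumour and at 2.02 and 2.83 CPM in the papillomas, a log2 fold change of 1.42 ± 0.34 (adjusted p = 0.0455 by edgeR). Hoxb4 was at 17.6 CPM in the tumour and at 6.42 and 7.73 CPM in the papillomas, a log2 fold change of 1.31 ± 0.24 (adjusted p = 0.0227 by edgeR). In each case the papillomas lay together and the tumour apart. Hoxc6 was at 17.7 CPM in the tumour and at 6.84 and 8.97 CPM in the papillomas, a log2 fold change of 1.15 ± 0.25 (adjusted p = 0.0345 by edgeR). Hoxb7 was at 24.5 CPM in the tumour and at 10.8 and 11.9 CPM in the papillomas, a log2 fold change of 1.10 ± 0.19 (adjusted p = 0.0197 by edgeR). Hoxb9, a gene of the thoracic skeleton, was at 19.8 CPM in the tumour and at 9.24 and 11.4 CPM in the papillomas, a log2 fold change of 0.93 ± 0.22 (adjusted p = 0.0443 by edgeR). Hoxb5, Hoxb9 and Hoxc6 missed the threshold with total-count scaling and with DESeq2's size factors, at edgeR adjusted p of 0.0505 to 0.0717, Hoxb5 also with only the libraries of this pair (0.0507) and Hoxb9 with all 6 libraries (0.0624). By DESeq2's Wald test Hoxb5 (adjusted p = 0.0699), Hoxb9 (adjusted p = 0.0644) and Hoxc9 (adjusted p = 0.0514) missed it.

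Both genes that fell lie in the higher-numbered part of their clusters. Hoxc10, a gene of the lumbar region and hindlimb motor neurons, had 0 counts in the tumour against 12 and 52 counts in papilloma 1 and papilloma 2, at least 18.1-fold lower against a floor of 3 counts in the tumour library (edgeR adjusted p = 0.0337). That bound rests on the papilloma used: it was at least 7.9-fold lower against papilloma 1 alone and at least 25.8-fold lower against papilloma 2 alone. Hoxd9 was at 1.23 CPM in the tumour and at 3.52 and 3.53 CPM in the papillomas, a log2 fold change of -1.52 ± 0.36 (adjusted p = 0.0440 by edgeR). The calls of Hoxc10 and Hoxd9 were both lost with total-count scaling and with DESeq2's size factors, at adjusted p of 0.0531 to 0.0781, and that of Hoxd9 also by DESeq2's Wald test (adjusted p = 0.0752), with all 6 libraries (edgeR adjusted p = 0.0527) and with only the libraries of this pair (edgeR adjusted p = 0.0505). Hoxa10, with 2 counts in the tumour (0.0475 CPM), did not pass (edgeR adjusted p = 0.109).

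Among the genes that did not pass, Hoxb2 was at 15.6 CPM in the tumour and at 7.36 and 9.64 CPM in the papillomas, and Hoxb3 at 16.9 CPM in the tumour and at 4.36 and 8.34 CPM in the papillomas (edgeR adjusted p = 0.0713 for Hoxb2 and 0.0664 for Hoxb3). DESeq2's Wald test called Hoxb3 higher (adjusted p = 0.0284). Without a filter on low counts, edgeR called Hoxb2 (adjusted p = 0.0471) and Hoxb3 (adjusted p = 0.0309) higher and Hoxd4 lower (adjusted p = 0.0433). Hoxb6 was at 13.1 CPM in the tumour and at 3.42 and 7.42 CPM in the papillomas. Hoxb8 and Hoxc8 did not share the higher tumour level of their neighbours: Hoxb8 was at 9.19 CPM in the tumour and at 7.69 and 10.6 CPM in the papillomas, and Hoxc8 at 12.8 CPM in the tumour and at 10.8 and 14.2 CPM in the papillomas. Both tumour values lay between the papillomas (edgeR adjusted p = 0.994 for Hoxb8 and 0.942 for Hoxc8), and the difference from their neighbours was not tested. Hoxc4 was at 9.26 CPM in the tumour against 6.84 and 6.36 CPM in the papillomas, and Hoxc5 at 7.98 CPM in the tumour against 6.70 and 5.37 CPM in the papillomas. Of HoxA, Hoxa2 was at 1.28 CPM in the tumour against 1.59 and 1.17 CPM in the papillomas, and Hoxa9 at 1.80 CPM in the tumour against 0.891 and 4.77 CPM. Hoxa5 was at 12.9 CPM in the tumour and 20.9 and 19.4 CPM in the papillomas, and Hoxa7 at 6.46 CPM in the tumour and 12.0 and 10.6 CPM in the papillomas (edgeR adjusted p = 0.0565 for Hoxa5 and 0.0782 for Hoxa7). Hoxd4 was at 1.47 CPM in the tumour and 3.42 and 3.57 CPM in the papillomas, and Hoxd8 at 4.13 CPM in the tumour and 5.20 and 7.31 CPM in the papillomas.

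Hoxb4, Hoxb5, Hoxc6 and Hoxc9 fell in papilloma and rose in the tumour. Both comparisons use the same papilloma libraries, so a low value there enters both. By the same rule, 1 of 23 members was lower in tumour than in papilloma, Hoxc13, and 0 were higher, where 5.35% of all genes were lower and 2.90% higher. With 1 library each and no test, it set 6 of 26 members lower in tumour than in skin and 0 higher, where 10.4% of all genes were lower and 5.40% higher. They were Hoxa10, Hoxc10, Hoxc13, Hoxd4, Hoxd8 and Hoxd9. Hoxd8 was at 4.13 CPM in the tumour and 21.9 CPM in skin, 5.30-fold lower (95% interval 4.51 to 6.25, counting error only). Hoxd4 was 7.20-fold lower (5.53 to 9.53) and Hoxd9 5.56-fold lower (4.14 to 7.59). Hoxc10 was at least 57.9-fold lower, against a floor of 3 counts in the tumour, and Hoxc13 263-fold lower (174 to 420). Hoxb genes were not among them: Hoxb7 was at 24.5 CPM in the tumour and 17.5 CPM in skin, and Hoxb9 at 19.8 CPM in the tumour and 18.8 CPM in skin.

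Hoxb8 is a known target in mice of miR-196, a microRNA encoded within the Hox clusters near paralogue 9. Whether miR-196 bears on the Hoxb8 levels seen here was not tested. The miR-196 and miR-10 microRNAs of the clusters each share a seed. They are shown with bases 2 to 8, the seed, in capitals (RefSeq, GRCm38.p6), since the members of a family read the same target sites.
mmu-miR-196a-5p: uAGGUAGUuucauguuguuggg
mmu-miR-196b-5p: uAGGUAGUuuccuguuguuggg
mmu-miR-10a-5p: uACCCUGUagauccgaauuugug
mmu-miR-10b-5p: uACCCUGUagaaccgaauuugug
Hoxb8 transcript site for miR-196a: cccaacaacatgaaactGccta
Counted from the 5′ end, miR-196b differs from miR-196a by A12C, and miR-10b from miR-10a by U12A. The Hoxb8 site, written 5′ to 3′ with the base that does not match in a capital, matches 21 of the 22 bases of miR-196a. It was the best match among 87 GENCODE M21 transcripts of all 39 Hox genes (GRCm38), the next best matching 15 bases. A match is a description of letters and not a measured site. The host model Mir196a-1, which lies between Hoxb13 and Hoxb9 (chromosome 11, 96126478 to 96126579, mm9), had 39 counts in the tumour, 4 and 12 counts in papilloma 1 and papilloma 2, and 21 counts in skin. Its log2 fold change in tumour against papilloma was 1.54 ± 0.69 and did not pass the test. The same model had 0 counts in mSCC-38 and 0 in mSCC-20. Hoxb8 was at 4.13 CPM in mSCC-38 and 0.552 CPM in mSCC-20, under its level in every biopsy. The transcript Gm53 beside it (chromosome 11, 96112974 to 96125798) was at 10.9 CPM in the tumour, 2.81 and 2.86 CPM in the papillomas and 3.36 CPM in skin, and had 1 count in mSCC-38 and 0 in mSCC-20. Mir10a, Mir10b, Mir196a-2, Mir196b and Mir615 had 0 counts in every library. Reads on a hairpin model are not a measure of the mature microRNA.

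Summed per cluster, the 4 clusters moved apart between libraries. HoxB summed to 64.7 CPM per kb in skin, 26.8 and 36.1 in papilloma 1 and papilloma 2, and 64.6 in the tumour. HoxA summed to 40.8 CPM per kb in skin, 27.9 and 27.5 in the papillomas, and 20.8 in the tumour. HoxD summed to 24.1 CPM per kb in skin, 7.48 and 9.31 in the papillomas, and 4.33 in the tumour. The tumour was therefore close to skin in HoxB and was the lowest biopsy in HoxA and HoxD. HoxC summed to 95.7 CPM per kb in skin, 16.9 and 33.9 in the papillomas, and 27.01 in the tumour. Without Hoxc13 the HoxC sums were 39.2 in skin, 15.8 and 18.5 in the papillomas, and 26.8 in the tumour. As shares of all Hox CPM per kb, HoxB took 28.7% in skin, 33.9% and 33.8% in the papillomas and 55.3% in the tumour.

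**Figure D4:**
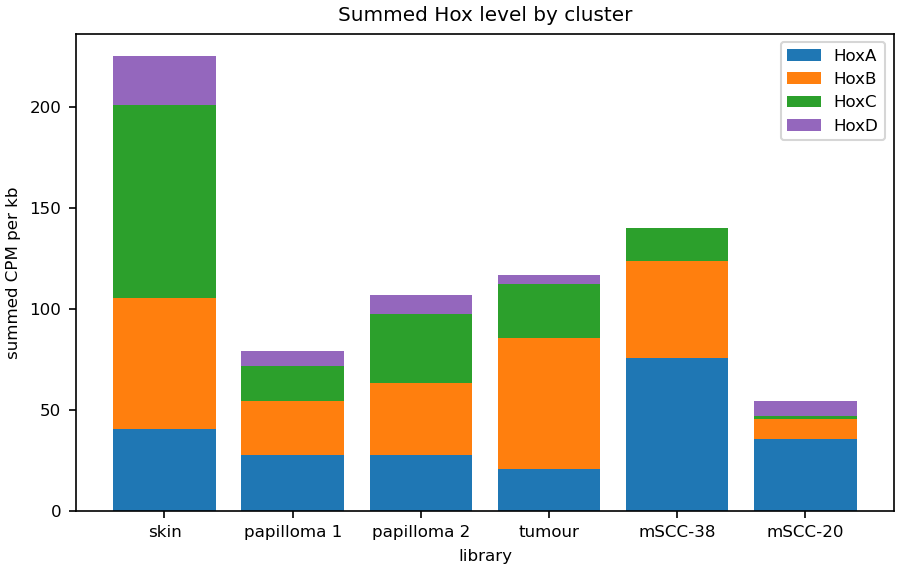
Summed CPM per kb of the members of each Hox cluster in each library, stacked by cluster. The totals are 225 in skin, 79.1 and 106.9 in the papillomas, 117 in the tumour, 140 in mSCC-38 and 54.3 in mSCC-20. HoxA is the largest part of both cultures, and HoxD is too small to see in mSCC-38.

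By paralogue number, groups 9 to 13 took 33.4% of the summed Hox level in skin, 10.5% in papilloma 1, 24.7% in papilloma 2 and 10.1% in the tumour. Hoxc13 made up most of that spread: without it the shares were 11.1%, 9.21%, 11.9% and 9.93% in the same 4 biopsies. Groups 5 to 8 took between 49.4% and 63.4% in the biopsies, and groups 1 to 4 between 17.2% and 29.6%. The cultures lay lower, with 0.336% in groups 9 to 13 in mSCC-38 and 8.36% in mSCC-20.

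The comparison of mSCC-38 with mSCC-20 sets a tumorigenic beside a non-tumorigenic population, with 1 library each and so no test. The body site of their tumours is not given, so site and tumorigenicity cannot be told apart. The 2 populations held different Hox sets. mSCC-38 held HoxA, HoxB and HoxC genes up to a fixed point in each cluster and no HoxD gene at 1 CPM, whereas mSCC-20 held HoxA up to Hoxa10, fewer HoxB genes, almost no HoxC, and Hoxd8 and Hoxd9. By the rule of size, 10 of 21 members were higher in mSCC-38 and 4 lower, beside 8.20% and 4.53% of all genes. The median log2 ratio was 1.70 over these members and -0.13 over all genes.

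In mSCC-38 the boundary was sharp. Hoxa2 to Hoxa7, Hoxb2 to Hoxb8 and Hoxc4 to Hoxc6 were each at 4.13 CPM or more, and 22 members had 9 counts or fewer, 11 of them 0. Hoxb8 had 137 counts and its neighbour Hoxb9 had 5. Hoxa7 had 1130 counts and Hoxa9 had 7. Hoxc6 had 381 counts and Hoxc8 had 3. All 9 HoxD genes together summed to 0.0330 CPM per kb. The drop therefore lay between paralogue groups 7 and 9 in HoxA, 8 and 9 in HoxB, and 6 and 8 in HoxC, whose missing numbers do not exist in those clusters.

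In mSCC-20 no such common boundary was seen. Hoxa9 was at 2.89 CPM (89 counts) and Hoxa10 at 1.01 CPM (31 counts), Hoxd8 at 8.12 CPM (250 counts) and Hoxd9 at 2.05 CPM (63 counts), while Hoxb2 had 1 count and Hoxc4 had 3. Of HoxB only Hoxb3, Hoxb4, Hoxb6 and Hoxb7 reached 1 CPM, and of HoxC only Hoxc13 did, at 2.37 CPM (73 counts). Hoxb13, a gene of the tail end of the body and the prostate, had 20 counts in mSCC-20 and 0 in each of the other 5 libraries.

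The promoters on both sides of the HoxA drop in mSCC-38, and of the HoxD pair over 1 CPM in mSCC-20 with 1 and 0 counts in mSCC-38, are shown with CG pairs, the letters that DNA methylation acts on, in capitals. Each is the 250 bases before the RefSeq start (GRCm38.p6), written in the direction of the gene.
Hoxa7, chr6:52218574-52218823, strand minus: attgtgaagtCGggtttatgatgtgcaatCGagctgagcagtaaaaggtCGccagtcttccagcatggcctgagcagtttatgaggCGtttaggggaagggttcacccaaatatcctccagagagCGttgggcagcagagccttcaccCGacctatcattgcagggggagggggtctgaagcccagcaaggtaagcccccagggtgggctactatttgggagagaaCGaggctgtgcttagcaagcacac
Hoxa9, chr6:52227371-52227620, strand minus: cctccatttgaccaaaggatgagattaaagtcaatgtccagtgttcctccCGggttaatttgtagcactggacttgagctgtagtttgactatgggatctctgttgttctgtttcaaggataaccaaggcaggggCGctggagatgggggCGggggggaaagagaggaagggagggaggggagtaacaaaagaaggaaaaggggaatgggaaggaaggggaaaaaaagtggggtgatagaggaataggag
Hoxd8, chr2:74704365-74704614, strand plus: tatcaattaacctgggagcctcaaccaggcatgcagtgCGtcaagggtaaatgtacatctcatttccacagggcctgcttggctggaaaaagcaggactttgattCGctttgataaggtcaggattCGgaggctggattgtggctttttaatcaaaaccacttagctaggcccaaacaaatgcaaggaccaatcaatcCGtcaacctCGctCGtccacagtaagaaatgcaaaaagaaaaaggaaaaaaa
Hoxd9, chr2:74697513-74697762, strand plus: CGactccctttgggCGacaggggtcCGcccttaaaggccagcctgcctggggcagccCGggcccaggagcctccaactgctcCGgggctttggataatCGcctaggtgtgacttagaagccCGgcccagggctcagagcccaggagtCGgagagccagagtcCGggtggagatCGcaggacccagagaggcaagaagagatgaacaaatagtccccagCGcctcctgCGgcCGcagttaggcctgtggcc
These windows hold 7 CG pairs for Hoxa7, 3 for Hoxa9, 6 for Hoxd8 and 13 for Hoxd9. The median was 12.5 over 24 windows of 22 Hox genes and 6 over 32851 windows of 27025 genes in the table. The letters TGATTNAT, a joint recognition motif of Pbx and Hox proteins, were searched on both strands and found in 0 of these 4 windows, in 2 of the 24 Hox windows (Hoxa2 and Hoxd11) and in 2.82% of all windows. No methylation or binding was measured in these libraries.

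Of the 10 members higher in mSCC-38, the widest gaps were in Hoxb2 and in HoxC. Hoxb2 was at 13.1 CPM in mSCC-38 and 0.0325 CPM in mSCC-20 (434 counts against 1), a ratio of 403 (95% interval 72.0 to 15970). Hoxc4 was at 11.7 CPM in mSCC-38 and 0.0974 CPM in mSCC-20 (388 counts against 3), a ratio of 120 (40.8 to 585). Hoxc6 was at 11.5 CPM in mSCC-38 and 0.390 CPM in mSCC-20, 29.5-fold higher (16.7 to 57.6), and Hoxc5 at 7.91 CPM in mSCC-38 and 0.390 CPM in mSCC-20, 20.3-fold higher (11.4 to 39.8). Hoxc8, Hoxc9 and Hoxc10 were near 0 in both populations: Hoxc8 had 3 counts in mSCC-38 and 2 in mSCC-20, Hoxc9 had 4 and 6, and Hoxc10 had 3 and 10.

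For Hoxb3 to Hoxb8 the ratios were smaller. Hoxb3 was at 14.3 CPM in mSCC-38 and 1.82 CPM in mSCC-20, 7.88-fold higher (5.97 to 10.6). Hoxb5 was at 4.92 CPM in mSCC-38 and 0.649 CPM in mSCC-20, 7.57-fold higher (4.75 to 12.7). Hoxb8 was at 4.13 CPM in mSCC-38 and 0.552 CPM in mSCC-20, 7.49-fold higher (4.51 to 13.2). The intervals of these 3 genes overlap. Hoxb4 was at 13.6 CPM in mSCC-38 and 2.21 CPM in mSCC-20, 6.15-fold higher (4.76 to 8.06), and Hoxb6 at 9.66 CPM in mSCC-38 and 1.88 CPM in mSCC-20, 5.13-fold higher (3.87 to 6.91). Hoxb7 was at 24.4 CPM in mSCC-38 and 7.27 CPM in mSCC-20, 3.35-fold higher (2.88 to 3.90), under the fold of the rule and with an interval below those of Hoxb3, Hoxb4, Hoxb5 and Hoxb8. Hoxb9 went the other way, with 5 counts in mSCC-38 and 14 in mSCC-20, a ratio of 0.332 (0.0936 to 0.975).

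In HoxA 1 gene passed in each direction. Hoxa7 was at 34.1 CPM in mSCC-38 and 5.97 CPM in mSCC-20, 5.71-fold higher (4.88 to 6.71). Hoxa9 was at 0.211 CPM in mSCC-38 and 2.89 CPM in mSCC-20, 13.7-fold lower (6.37 to 35.0). Hoxa5 was at 53.5 CPM in mSCC-38 and 18.9 CPM in mSCC-20, 2.83-fold higher (2.58 to 3.12), and Hoxa2 at 8.12 CPM in mSCC-38 and 2.63 CPM in mSCC-20, 3.09-fold higher (2.40 to 4.01). Hoxa10 had 9 counts in mSCC-38 and 31 in mSCC-20.

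The other 3 lower members were Hoxc13, Hoxd8 and Hoxd9. Hoxd8 had 1 count in mSCC-38 and 250 counts in mSCC-20, a ratio of 0.00372 (9.37e-05 to 0.0209). Hoxd9 had 0 counts in mSCC-38 and 63 counts in mSCC-20, at least 22.6-fold lower against a floor of 3 counts. Hoxd4 had 1 count in mSCC-38 and 23 counts in mSCC-20, under the minimum level of the rule. Hoxc13 had 3 counts in mSCC-38 and 73 counts in mSCC-20, a ratio of 0.0382 (0.00770 to 0.116). At 0.0658% of skin, the mSCC-38 level of Hoxc13 is close to that of 10 hair genes whose skin level was 500 CPM or more, which were counted in mSCC-38 at 0.00436% to 0.0601% of skin. Hoxc13 in mSCC-20 was at 1.72% of skin, above the 0.0298% to 0.115% of the same hair genes there. These genes were picked by their high skin level, which favours low percentages elsewhere. The 17 listed hair shaft genes summed to 7.02% of skin in mSCC-38 and 4.66% in mSCC-20, above Hoxc13 in both. Most of those sums was Padi3, at 488 CPM in mSCC-38, 314 CPM in mSCC-20 and 396 CPM in skin. The source of the Hoxc13 counts in the cultures was not tested.

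**Figure D5:**
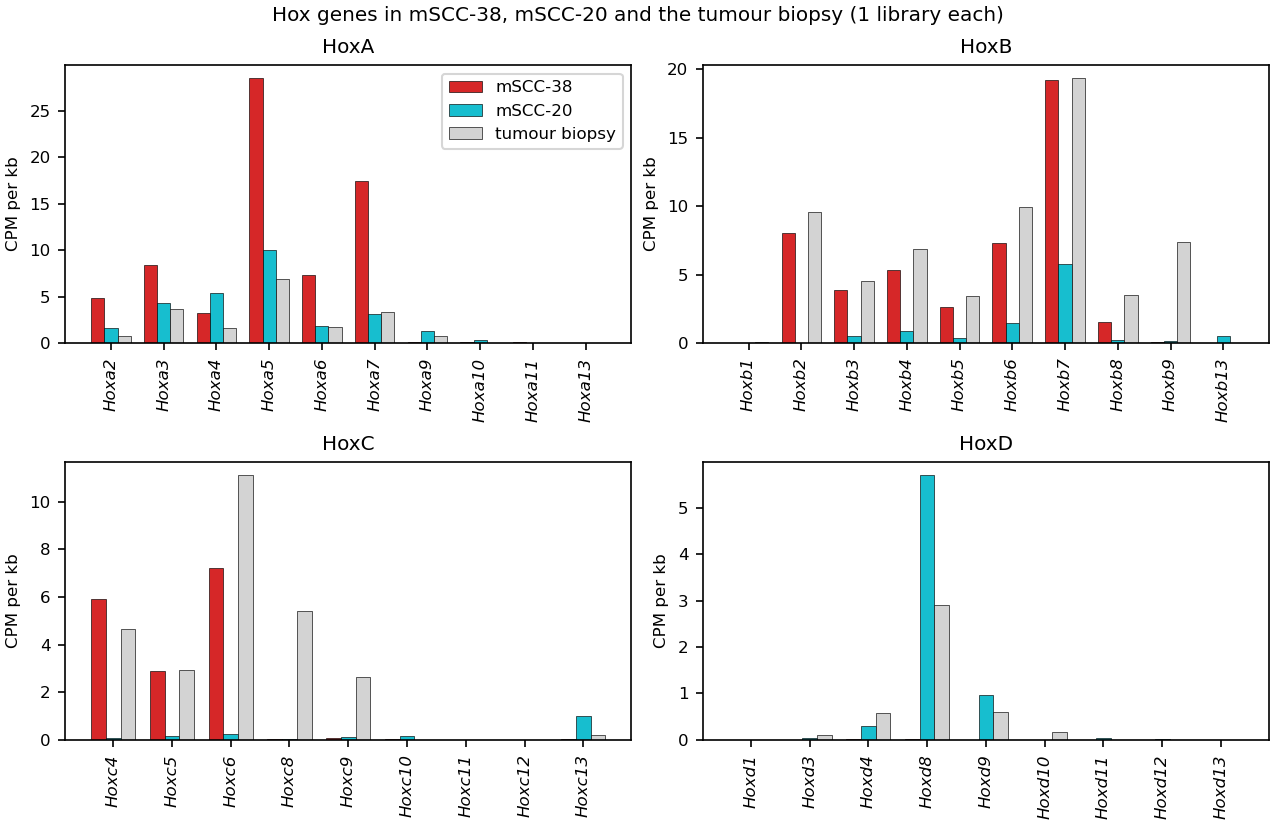
CPM per kb of 38 Hox genes in mSCC-38, mSCC-20 and the tumour biopsy (1 library each, no error bars), with 1 panel per cluster and its own vertical scale. In mSCC-38 bars stop after Hoxa7, Hoxb8 and Hoxc6 and HoxD is empty; in mSCC-20 Hoxd8 stands at 5.71 CPM per kb.

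Set beside the tumour biopsy, mSCC-38 was higher in 3 of 21 members (Hoxa2, Hoxa5 and Hoxa7) and lower in 4 (Hoxb9, Hoxc8, Hoxc9 and Hoxd8), where 2.79% of all genes were higher and 15.1% lower. Hoxb9 was at 0.151 CPM in mSCC-38 and 19.8 CPM in the tumour, 131-fold lower (56.1 to 406), and Hoxc8 was at 0.0905 CPM in mSCC-38 and 12.8 CPM in the tumour, a ratio of 0.00705 (0.00145 to 0.0207). Hoxb2 to Hoxb7 differed by less than 4-fold. mSCC-20 was lower than the tumour in 12 of 23 members and higher in 0, where 19.6% of all genes were lower and 5.78% higher. These 12 were Hoxb2, Hoxb3, Hoxb4, Hoxb5, Hoxb6, Hoxb8 and Hoxb9 with Hoxc4, Hoxc5, Hoxc6, Hoxc8 and Hoxc9. Hoxc6 was at 0.390 CPM in mSCC-20 and 17.7 CPM in the tumour, 45.4-fold lower (25.8 to 88.2). Hoxb9 was at 0.455 CPM in mSCC-20 and 19.8 CPM in the tumour, 43.6-fold lower (25.8 to 80.1). The tumour biopsy thus held trunk genes of paralogue group 9 and Hoxc8 that stood under 1 CPM in both cultures, apart from Hoxa9 and Hoxd9 in mSCC-20.

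Fibroblast markers, genes of a cell type known for strong Hox expression, were higher as a sum in mSCC-38 than in mSCC-20. So were Hoxb2 to Hoxb8 and Hoxc4 to Hoxc6, each on its own. Hoxb9, Hoxb13, Hoxc9, Hoxc10 and Hoxc13 went the other way. The 12 markers summed to 861 CPM in mSCC-38, 39.9 CPM in mSCC-20 and 5020 CPM in the tumour. Of the 9 markers at 2 CPM or more in either culture, 6 were at least 4-fold higher in mSCC-38 and 0 lower, none was at 0, and Lum, Thy1 and Dpt were under 1 CPM in both cultures. Prrx1, a mesenchymal transcription factor gene, was at 364 CPM in mSCC-38, 2.18 CPM in mSCC-20 and 60.7 CPM in the tumour, and Col1a2 at 2.78 CPM in mSCC-38 and 2.18 CPM in mSCC-20. The 12 keratinocyte markers summed to 10300 CPM in mSCC-38 and 18600 CPM in mSCC-20. The part of cell type in the Hox sets of the cultures was not tested.

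Mira, a non-coding transcript between Hoxa6 and Hoxa7 (chromosome 6, 52164490 to 52165287, mm9), was followed beside them. It was at 43.8 and 38.1 CPM in the papillomas and 42.8 CPM in skin, at 16.3 CPM in the tumour, and at 102 CPM in mSCC-38 and 15.8 CPM in mSCC-20. Its highest library was thus also that of its neighbours Hoxa6 and Hoxa7. Evx2, the homeobox gene beside the high-numbered end of HoxD, had 0 counts in every library.

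Of 9 genes of Hox cofactors, 1 rose and 1 fell in papilloma against skin, where 12.0% of all genes rose and 14.1% fell. Neither this list nor those that follow were tested against the shares of all genes. Pknox2, which fell, was at 1.69 and 1.31 CPM in the papillomas and 8.75 CPM in skin, a log2 fold change of -2.55 ± 0.36 (adjusted p = 0.0146 by edgeR). In tumour against papilloma 1 gene fell, Pbx4. Between the cultures Meis3 was at 0.272 CPM in mSCC-38 and 11.2 CPM in mSCC-20, while Meis1 and Meis2 differed by less than 4-fold.

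Of 24 Polycomb genes, whose products keep Hox genes silent, 6 fell and 1 rose in papilloma (median log2 fold change -0.34), and 8 rose and 1 fell in the tumour against papilloma (median 0.01). Of all genes, 14.1% fell and 12.0% rose in papilloma, and 11.9% rose and 10.6% fell in the tumour against papilloma. Cbx7, which reads the repressive histone mark, was at 8.91 and 7.66 CPM in the papillomas and 32.6 CPM in skin, a log2 fold change of -1.97 ± 0.21 (adjusted p = 0.00919 by edgeR), and fell in the tumour, at 3.42 CPM, against papilloma (log2 fold change -1.28 ± 0.24, edgeR adjusted p = 0.0250). Rnf2, the ubiquitin ligase of the complex, was at 105 CPM in the tumour and 38.6 and 45.0 CPM in the papillomas (log2 fold change 1.33 ± 0.17, edgeR adjusted p = 0.00936). Ezh2, the methyltransferase, did not pass in either comparison. It was at 138 CPM in mSCC-38 and 283 CPM in mSCC-20, and Phf19, a targeting subunit, at 8.66 CPM in mSCC-38 and 0 counts in mSCC-20. Of 11 trithorax and H3K27 demethylase genes, the lowest adjusted p in papilloma against skin was that of Psip1 (edgeR adjusted p = 0.118), and 1, Ash2l, rose in the tumour against papilloma (log2 fold change 0.73 ± 0.16, edgeR adjusted p = 0.0387).

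Among 28 other positional transcription factors, 23 were tested, and in papilloma 5 rose and 7 fell, where 12.0% of all genes rose and 14.1% fell. Pitx1, which specifies the hindlimb, was at 155 and 87.1 CPM in the papillomas and 0.925 CPM in skin, a log2 fold change of 7.03 ± 0.55 (adjusted p = 0.00578 by edgeR), and at 210 CPM in the tumour, 131 CPM in mSCC-38 and 18.3 CPM in mSCC-20. Pax9, a gene of oral and tongue epithelium, was at 13.7 and 5.93 CPM in the papillomas and 0.0402 CPM in skin (2 counts), a log2 fold change of 7.81 ± 0.95 (adjusted p = 0.0111 by edgeR). Tbx15, a gene of dorsal dermis, was at 15.4 and 16.0 CPM in the papillomas and 58.6 CPM in skin, a log2 fold change of -1.89 ± 0.15 (adjusted p = 0.00580 by edgeR). It was at 3.02 CPM in mSCC-38 and 32.7 CPM in mSCC-20. En1, which marks ventral ectoderm, had 2 counts in mSCC-38 and 224 counts in mSCC-20. In tumour against papilloma 5 fell, where 10.6% of all genes did. Among these 5 was Dlx5, at 0.522 CPM in the tumour and 15.3 and 13.1 CPM in the papillomas.

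Of 16 caudal and retinoid genes that act upstream of Hox genes in the embryo, 12 were tested, with 3 risen and 3 fallen in papilloma and 2 risen and 4 fallen in the tumour against papilloma. Of all genes, 12.0% rose and 14.1% fell in papilloma, and 11.9% rose and 10.6% fell in the tumour against papilloma. Aldh1a3, which makes retinoic acid, was at 435 and 461 CPM in the papillomas and 22.6 CPM in skin, a log2 fold change of 4.31 ± 0.28 (adjusted p = 0.00535 by edgeR). Aldh1a1, of the same list, fell, at 4.59 and 5.26 CPM in the papillomas and 29.9 CPM in skin (log2 fold change -2.60 ± 0.23, edgeR adjusted p = 0.00708). Rarb, a retinoic acid receptor gene that retinoic acid induces, was at 7.69 CPM in the tumour and 0.703 and 1.38 CPM in the papillomas (log2 fold change 2.85 ± 0.46, edgeR adjusted p = 0.0170). It was at 4.85 CPM in skin, and fell in papilloma against skin (log2 fold change -2.19 ± 0.46, edgeR adjusted p = 0.0317). Cdx2 and Cdx4 had 0 counts in every library.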

How the data were processed

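Total RNA of 6 mouse samples was purified with Qiazol and columns, and a kit for small RNA gave SOLiD libraries, per the labels' protocols. The authors deposited 1 table of 23726 gene models with a raw count and an RPKM value per model and library, per the file headers. The genome build was mm9, per the submitters' processing notes; which aligner and counter were used, and whether strand was used, is not given in the sources used here. Overlapping, antisense and near-identical genes may therefore share reads. The deposited RPKM values equal counts per kb and per 1000000 counts, with a total of 99.18% to 99.57% of the summed counts, and served as a check. Papilloma 1 and papilloma 2 were further apart than counting noise (67.8 chi-square units per degree of freedom, 14845 genes).

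Counts were fitted with edgeR 4.0.16 (limma 3.58.1, R 4.3.3; TMM, default filter by group, quasi-likelihood test, group as the only term) in the 4 biopsies, over 16353 genes. The fit has 1 residual degree of freedom, from the papillomas (common dispersion 0.0774, prior degrees of freedom 3.81), and takes skin and tumour to vary as they do. SEs of log2 fold changes come from edgeR's F statistic, as the size of the change over the root of F. Comparisons with 1 library a side have no p-value and use a rule of size, at least 4-fold on CPM plus 0.5 and 2 CPM or more in the higher group. Intervals of ratios are 95% Clopper-Pearson intervals; intervals and floors cover counting error only. The edgeR steps were run on simulated data with changes of 4-fold and more. The called Hox genes, Hoxc10 apart, changed by less, so that run did not cover changes of their size. All 39 members entered the fits, counts and sums; the values of 1 member and of 1 cofactor gene are not reported here. Members named with values were those called in either tested comparison, those past the fold in any comparison, and the 3 highest per kb in each library; genes of other lists were named as examples after their values were seen, and so were other members. The members and lists were chosen with earlier results of these data known. The alternatives were total-count scaling, DESeq2 (1.42.0) size factors and Wald test, no filter, other sets of libraries, other additions to CPM (0.1 and 2), minimum levels (10 CPM and none), a 2-fold rule, sums without length correction and each papilloma left out. Leaving out each papilloma for the cluster sums and the Hoxc10 bound, and Hoxc13 for the shares, was chosen after seeing the data. RefSeq sequences (GRCm38.p6) were matched by name.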

Additional observations from a re-analysis of the deposited data

How the results depend on the processing

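No paired analysis was possible because papilloma is the only group with more than 1 library. No called Hox gene changed sign under any alternative. Counts of members called moved with the scaling. Total counts alone gave all genes from 10 CPM upwards a median log2 ratio of -0.37 in papilloma against skin, against 0.07 with TMM. With that scaling 0 members were higher and 16 lower there, where the main fit had 11 lower. Of all 16353 genes, 1015 were higher and 3484 lower with that scaling, against 1959 and 2298 in the main fit. In tumour against papilloma 3 members were higher and 0 lower with total counts alone, beside 1778 and 1171 of all genes. With DESeq2's size factors in edgeR, 6 members were lower in papilloma against skin, beside 1633 of 16353 genes. In tumour against papilloma 3 members were higher and 0 lower with these factors, beside 1596 and 1412 of all genes. Without a filter on low counts 4 members were lower in tumour against papilloma, beside 2067 of 19190 genes. With only the libraries of that pair 1 member was lower, beside 1700 of 15600 genes. The cause was not tested. By DESeq2's Wald test 1 member was higher and 8 were lower in papilloma, beside 2348 and 1742 of 15097 genes. In tumour against papilloma it called 4 members higher and 2 lower, beside 1791 and 1889 of 15841 genes.

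By the rule of size in papilloma against skin, 4 members were lower with total counts alone and 1 with 2 CPM added or with a 10 CPM minimum. Shares of all genes are not given for the settings of this paragraph, so its counts show only how far the rule moved. A 2-fold rule gave 1 higher and 13 lower there, 7 higher and 3 lower in tumour against papilloma, and 1 higher and 11 lower in tumour against skin. Leaving out 1 papilloma gave 0 to 4 lower members in papilloma against skin and 0 to 1 in tumour against papilloma. In tumour against skin 1 was lower with 2 CPM added and 3 with a 10 CPM minimum. For mSCC-38 against mSCC-20, 6 were higher with either setting, and 1 was lower with 2 CPM added and 0 with a 10 CPM minimum. For mSCC-38 against the tumour, 1 was higher and 2 lower with 2 CPM added, 2 lower with a 10 CPM minimum, and 6 higher at 2-fold. For mSCC-20 against the tumour, 3 were higher at 2-fold and 7 lower with a 10 CPM minimum.

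The log2 ratio of the HoxA sum in papilloma against skin was -0.56, and -0.98 with total counts, -0.57 with DESeq2's size factors and -0.61 without length correction. In tumour against papilloma it was -0.41, and -0.28, -0.45 and -0.35 under the same settings, and in mSCC-38 against mSCC-20 it was 1.09, and 1.20, 1.13 and 0.99. Total counts gave -1.45 for HoxB and -1.93 for HoxD in papilloma against skin. The HoxC sum in tumour against papilloma, 0.09, turned to -0.075 without length correction and ran from -0.33 to 0.67 over the 2 papillomas left out, so it has no stable direction. Without Hoxc13, skin held 23.0%, 65.9% and 11.1% in groups 1 to 4, 5 to 8 and 9 to 13, and papilloma 2 held 25.4%, 62.7% and 11.9%. Without length correction, groups 1 to 4 took 29.2% in papilloma 1, 35.4% in the tumour, 39.4% in mSCC-38 and 45.6% in mSCC-20, and groups 5 to 8 took 42.2% in skin, 46.6% in papilloma 2, 51.9% in the tumour, 60.1% in mSCC-38 and 44.5% in mSCC-20.

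Only papilloma has a replicate, so skin, tumour and culture values carry no replicate error, and members under about 10 counts could not be compared.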
